A study of Rattus norvegicus with 12 samples.

Results

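A set of 185 transcripts stood higher in rat aortic smooth muscle cells given a hairpin virus and tumour necrosis factor alpha (TNF) than in cells given an expression virus without it. They were chosen by their values from 29330 transcripts, of which 12046 had a mean level of at least 2 and under 400 FPKM over the 12 libraries (fragments scaled to transcript length and library size). A member had a mean log2(FPKM + 1) at least 1.5 higher over the 6 hairpin libraries than over the other 6. Its lowest hairpin library also lay above the highest of the other 6. The rule took 1.54% of the 12046 transcripts, and the mirrored rule, for transcripts lower in both hairpin groups, took 62 (0.515%). These shares follow from the rule and nothing is read from them.

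All cells were primary vascular smooth muscle cells that had grown out of the media of thoracic aortas from male Sprague-Dailey rats (as the labels spell the strain), infected overnight with adenovirus at passage 4 and later kept in 0.2% serum for 24 to 32 h. Ad-GFP cells received a virus carrying green fluorescent protein and Ad-Cklf1 cells a virus overexpressing Cklf1, a chemokine-like factor, both without TNF. Scramble cells received a control hairpin and knockdown cells a hairpin against Cklf1, both with TNF at 25 µg/L for 24 h. Each of the 4 groups held 3 libraries, called triplicates in the labels with no word on whether animals or cultures were separate. The p-values then cover only the spread between these libraries, which may be technical. The arms thus differed in TNF and in what the virus carried, and any batch would go with them. Their parts in the difference between arms cannot be told apart.

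TNF is a cytokine that binds receptors on the cell surface and activates the NF-κB and MAP kinase pathways. In vascular smooth muscle it is known to induce genes for chemokines, adhesion molecules, matrix proteases and inhibitors that feed back on NF-κB itself. Cklf1 is described as a secreted factor that attracts leukocytes. None of these genes can be pointed to here. The files carry Ensembl transcript identifiers without names, 0 of the 185 identifiers matched the gene table used, which holds 47357 genes, and the members are therefore given by identifier. Their functions, positions and sequences, the markers of smooth muscle and other cell types, and the level of Cklf1 itself were not analysed here. Several transcripts may belong to 1 gene, in which case they are not independent.

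The libraries held 492242 to 627410 FPKM in total, and 8164 to 9735 of the 29330 transcripts were listed at 0. FPKM values do not record read numbers. Steps in the low values gave a rough depth relative to Ad-GFP replicate 1 of 0.979 to 1.29 in the other Ad-GFP libraries, 0.722 to 0.829 in Ad-Cklf1, 0.620 to 0.655 in scramble and 0.611 to 0.753 in knockdown. Depth was thus lower in the hairpin groups than in Ad-GFP, and its part in the results was not tested. Within a group, each library correlated with the mean of the other 2 at 0.980 to 0.989 on the log2 scale, lowest for knockdown replicate 3.

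The members ranged from transcripts that were near 0 without TNF to abundant ones. Their mean over the 6 hairpin libraries ran from 3.76 to 579 FPKM with a median of 22.7. Over the Ad-GFP and Ad-Cklf1 libraries the median was 3.29 FPKM and the highest mean 159 FPKM. The difference between the arms, which chose the members, had a median of 2.10 log2 units and reached 7.54. It was at least 2 for 103 members, at least 3 for 39 and at least 4 for 16. The ratio of the mean FPKM of the arms was at least 2.94 for every member, with a median of 5.99, and at least 10 for 55 of them. Summed over the 185 members, the level was 1575 to 1680 FPKM in the 6 libraries without TNF and 9731 to 10757 FPKM in the 6 with it. The plot of arm means shows the members apart from the diagonal along which most other transcripts lie.

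**Figure D1:**
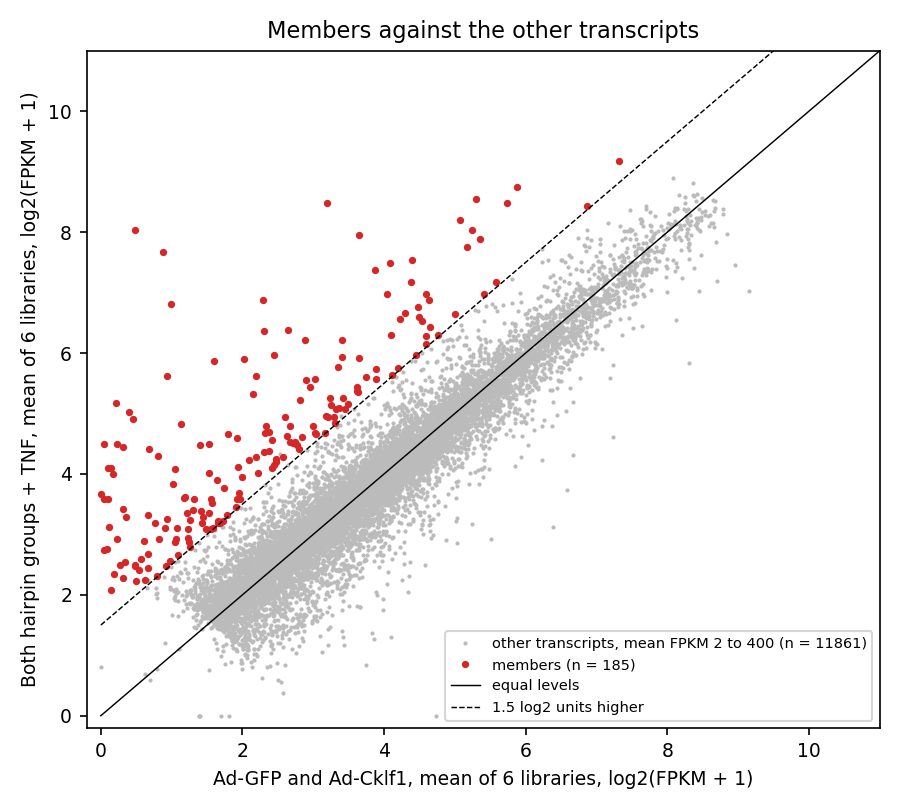
Mean log2(FPKM + 1) over the 6 Ad-GFP and Ad-Cklf1 libraries (x axis) against the mean over the 6 hairpin libraries with TNF (y axis), 1 point per transcript with a mean of 2 to 400 FPKM. The 185 members (red) lie above the dashed line, which marks 1.5 log2 units, as the rule demands, and the other 11861 transcripts are grey.

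By their level without TNF the members fell into 3 ranges, set at round values after the data were seen. In 35 members all 6 libraries without TNF were under 1 FPKM, and the hairpin mean had a median of 9.02 FPKM and reached 268. In 37 members all 6 were at least 10 FPKM, the median hairpin mean was 108 FPKM and the median ratio between arms was 5.02. The other 113 members lay between, with a median hairpin mean of 19.8 FPKM and a median ratio of 5.43. A total of 13 members were listed at 0 in at least 1 library without TNF, 0 were at 0 in all 6, and 0 members were at 0 in any hairpin library.

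**Figure D2:**
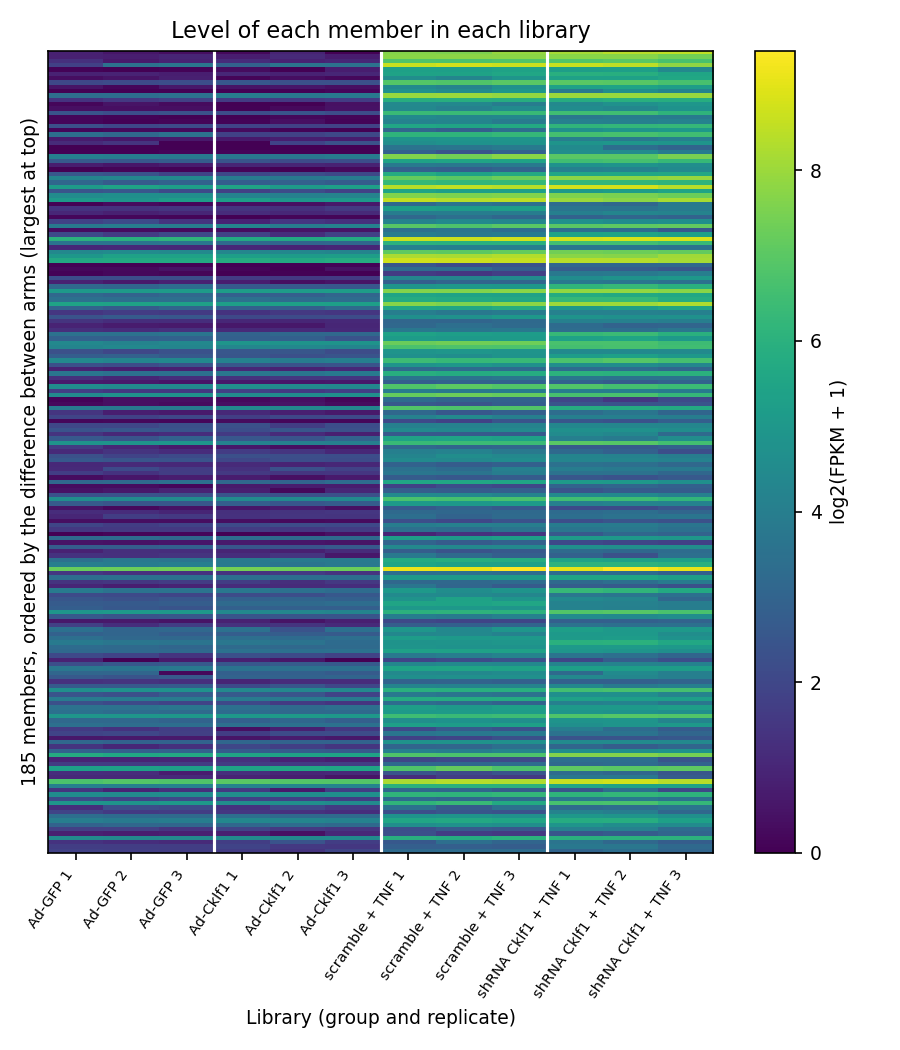
Level of each of the 185 members (rows, ordered by the difference between arms) in each of the 12 libraries (columns), as log2(FPKM + 1) by colour. White lines part the groups. The 6 hairpin libraries on the right are higher than the 6 on the left in each row, as the rule demands, and the rows differ in whether they are dark (near 0) or already green without TNF.

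Of the 8 members furthest apart between the arms, 6 had a median below 1 FPKM without TNF. Where 3 values are given for a group, they are those of replicates 1, 2 and 3. ENSRNOT00000014865 was at 0 to 0.922 FPKM (median 0.381) in the 6 libraries without TNF and at 187 to 361 FPKM (median 259.7) in the 6 with it. ENSRNOT00000022128 stood at 0.626 to 1.19 FPKM (median 0.786) and 167 to 217 FPKM (median 210.0), in the same order of arms. For ENSRNOT00000018622 the ranges were 0.581 to 1.45 FPKM (median 0.941) and 103 to 126 FPKM (median 112). These 3 had the largest differences, 7.54, 6.80 and 5.83 log2 units. ENSRNOT00000078806 varied most without TNF among the 8, at 2.55 / 10.3 / 11.8 FPKM in Ad-GFP and 6.79 / 11.2 / 10.7 FPKM in Ad-Cklf1, and reached 385 / 426 / 399.7 FPKM in scramble and 386 / 354 / 230.1 FPKM in knockdown. ENSRNOT00000020982 was at 0 to 0.684 FPKM (median 0.0630) without TNF and at 20.3 to 41.2 FPKM (median 38.6) with it. Its lowest hairpin library was knockdown replicate 3, at 20.3 FPKM, and the other 5 were at 37.9 FPKM or more. The remaining members of this group were ENSRNOT00000016541, ENSRNOT00000012075 and ENSRNOT00000016330, with medians of 0.896, 0.275 and 3.88 FPKM without TNF and 46.0, 34.6 and 120.4 FPKM with it.

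The 8 most abundant members in the hairpin libraries together made up 29.8% of the summed member level there. ENSRNOT00000020265 was the highest, at 149 to 173 FPKM (median 158) without TNF and 513 to 675 FPKM (median 545) with it. ENSRNOT00000025222 stood at 50.5 to 68.7 FPKM (median 57.0) without TNF and at 397 to 454 FPKM (median 433) with it. ENSRNOT00000023017, at 106 to 126 FPKM (median 116) and 298 to 425 FPKM (median 327), had the smallest difference of these 8, 1.56 log2 units. These 3 were thus already abundant in the libraries without TNF. ENSRNOT00000067391, ENSRNOT00000028066 and ENSRNOT00000066363 had medians of 38.3, 51.5 and 32.5 FPKM without TNF and 349, 355 and 304 FPKM with it. The other two, ENSRNOT00000078806 and ENSRNOT00000014865, are also among the 8 furthest apart.

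At the threshold, the members just inside were ENSRNOT00000059997, ENSRNOT00000039335 and ENSRNOT00000090485, with differences of 1.51, 1.51 and 1.5047 log2 units. Just outside were ENSRNOT00000039177, ENSRNOT00000015870 and ENSRNOT00000074494, at 1.4985, 1.4970 and 1.4967. The lowest hairpin library exceeded the highest other library by a ratio of 1.11 to over 10, with a median of 3.67. This ratio was under 2 for 24 members and at least 10 for 34. Above the ceiling of 400 FPKM, 3 further transcripts met the other criteria and are not members, with differences of 6.34 to 7.09 log2 units.

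The median standard deviation between replicates over the members was 0.095 log2 units for Ad-GFP, 0.10 for Ad-Cklf1, 0.088 for scramble and 0.15 for knockdown. Over the 13698 transcripts whose mean reached 1 FPKM it was 0.088, 0.078, 0.091 and 0.11, in the same order. Replicates of the members were thus further apart than that in Ad-Cklf1, in the knockdown and, by less, in Ad-GFP, and slightly closer in scramble. Knockdown replicate 3 was the lowest library of its group for 111 of 185 members, and for 5234 (38.2%) of the 13698 transcripts. This held for 40 of the 62 members that rose in the knockdown, 24 of the 38 that fell and 47 of the 85 not called. The part of this library in the counts is given beside them.

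Knockdown against scramble, both with TNF, asks which members differed with the hairpin within the treated arm. The rule did not use this difference, but it used the levels of both groups, and a high level in either could bring a transcript in. In the knockdown 62 rose above scramble and 38 fell below it, and 85 did not pass the test (limma, adjusted p below 0.05 over 13698 transcripts). That is 54.1% of the members called, where 29.6% of the 13698 tested transcripts were called, and 31.0% of the 12046 with 2 to 400 FPKM. Rises took in 33.5% of members beside 16.0% of all tested, and falls 20.5% beside 13.6%. The median log2 fold change was 0.067 over the members and 0.0099 over all tested, with quartiles of -0.29 and 0.47 against -0.16 and 0.18. These shares and quartiles are partly set by how the members were chosen, so nothing particular to the members is read from them. With scramble as the only hairpin group, 38 members would not meet the level and difference of the rule, of which 29 rose in the knockdown and 0 fell. With knockdown as the only hairpin group, 29 would not meet them, of which 18 fell and 2 rose. Of the 123 members that met them with either group alone, 33 rose and 20 fell. By at least 1 log2 unit, 14 members rose and 7 fell (7.57% and 3.78%, beside 1.10% and 0.270% of all tested). The 3 libraries of each group did not overlap for 114 members (61.6%, beside 42.4% of all tested) and for 96 of the 100 called. Without knockdown replicate 3, 64 rose and 35 fell, and 93 members kept their call and direction.

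Of the 5 largest rises in the knockdown, 3 belong to members that owe their place to the knockdown libraries, since they would not meet the rule with scramble alone: ENSRNOT00000029184, ENSRNOT00000088707 and ENSRNOT00000000995. Their low scramble level and their rise follow in part from the choice of members. ENSRNOT00000029184 was at 2.10 / 1.91 / 2.43 FPKM in the scramble libraries and at 12.6 / 12.9 / 15.1 FPKM in the knockdown, while Ad-GFP stood at 0.0719 / 0.148 / 0.0838 FPKM and Ad-Cklf1 at 0 / 0.0472 / 0 FPKM. The knockdown libraries were all far above scramble, with a ratio of means of 6.31 (2.21 log2 units, SE 0.078, adjusted p = 5.3e-07 by limma). ENSRNOT00000088707 was barely higher in scramble, at 1.35 / 2.32 / 2.06 FPKM, than in Ad-GFP, at 1.10 / 1.14 / 1.19 FPKM. In the knockdown it reached 12.7 / 12.8 / 5.69 FPKM, with replicate 3 lowest (1.91 log2 units, SE 0.25, adjusted p = 0.000523 by limma). ENSRNOT00000003745, which met the rule with either hairpin group alone, stood at 7.53 / 6.10 / 9.63 FPKM in scramble and 25.1 / 29.3 / 32.2 FPKM in knockdown (1.78 log2 units, SE 0.14, adjusted p = 3.23e-05 by limma), after 0.135 / 0.186 / 0.176 FPKM in Ad-GFP and 0.217 / 0.0593 / 0 FPKM in Ad-Cklf1.

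The other two of the 5 largest rises were also near 0 without TNF. ENSRNOT00000000995 was at 0.952 / 1.53 / 1.80 FPKM in scramble and 5.02 / 7.84 / 6.89 FPKM in knockdown, and at most 0.349 FPKM without TNF (1.64 log2 units, SE 0.17, adjusted p = 0.000128 by limma). ENSRNOT00000021730, which also met the rule with either hairpin group alone, was at 6.56 / 4.61 / 6.83 FPKM in scramble and 23.6 / 22.1 / 14.5 FPKM in knockdown, and at most 0.106 FPKM without TNF (1.58 log2 units, SE 0.17, adjusted p = 0.000157 by limma). In all 5 the 3 knockdown libraries lay above the 3 scramble libraries. Folds of such low transcripts are understated on the log2(FPKM + 1) scale: the ratios of mean FPKM were 5.45 for ENSRNOT00000088707, 3.72 for ENSRNOT00000003745, 4.61 for ENSRNOT00000000995 and 3.34 for ENSRNOT00000021730. Over all 62 rises the median size was 0.67 log2 units and the smallest 0.20.

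The 5 largest falls in the knockdown left each transcript above its libraries without TNF, as the rule demands. Of these 5, only ENSRNOT00000085158 met the rule with either hairpin group alone. The others owe their place to the scramble libraries, since they would not meet the rule with knockdown alone. Their low knockdown level and their fall follow in part from the choice of members. ENSRNOT00000085158 was at 37.4 / 34.4 / 37.4 FPKM in scramble and 11.6 / 11.2 / 14.2 FPKM in knockdown, beside 1.59 / 1.56 / 1.76 FPKM in Ad-GFP and 1.65 / 1.44 / 1.93 FPKM in Ad-Cklf1 (-1.49 log2 units, SE 0.091, adjusted p = 9.18e-06 by limma). ENSRNOT00000014552 went from 43.5 / 43.3 / 46.1 FPKM in scramble to 16.9 / 16.6 / 14.8 FPKM in knockdown, with 5.57 / 5.31 / 5.86 FPKM in Ad-GFP and 8.52 / 8.40 / 9.21 FPKM in Ad-Cklf1 (-1.41 log2 units, SE 0.062, adjusted p = 2.25e-06 by limma). Both kept narrow replicate ranges in all 4 groups. ENSRNOT00000083682 fell from 42.1 / 43.1 / 39.7 FPKM to 15.6 / 13.5 / 23.1 FPKM (-1.24 log2 units, SE 0.20, adjusted p = 0.00169 by limma), and Ad-GFP and Ad-Cklf1 stood at 5.14 / 4.50 / 6.84 FPKM and 4.86 / 4.37 / 6.93 FPKM. ENSRNOT00000012811 was at 15.8 / 17.2 / 13.0 FPKM in scramble and 8.24 / 6.53 / 3.82 FPKM in knockdown (-1.22 log2 units, SE 0.23, adjusted p = 0.00362 by limma). ENSRNOT00000007879 was at 8.87 / 7.18 / 6.79 FPKM in scramble and 3.03 / 1.91 / 3.32 FPKM in knockdown (-1.21 log2 units, SE 0.15, adjusted p = 0.000368 by limma). The scramble mean was 2.95 times the knockdown mean for ENSRNOT00000085158, 2.75 times for ENSRNOT00000014552 and 2.76 times for ENSRNOT00000007879. Over the 38 falls the median size was 0.52 log2 units and the smallest 0.20.

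**Figure D3:**
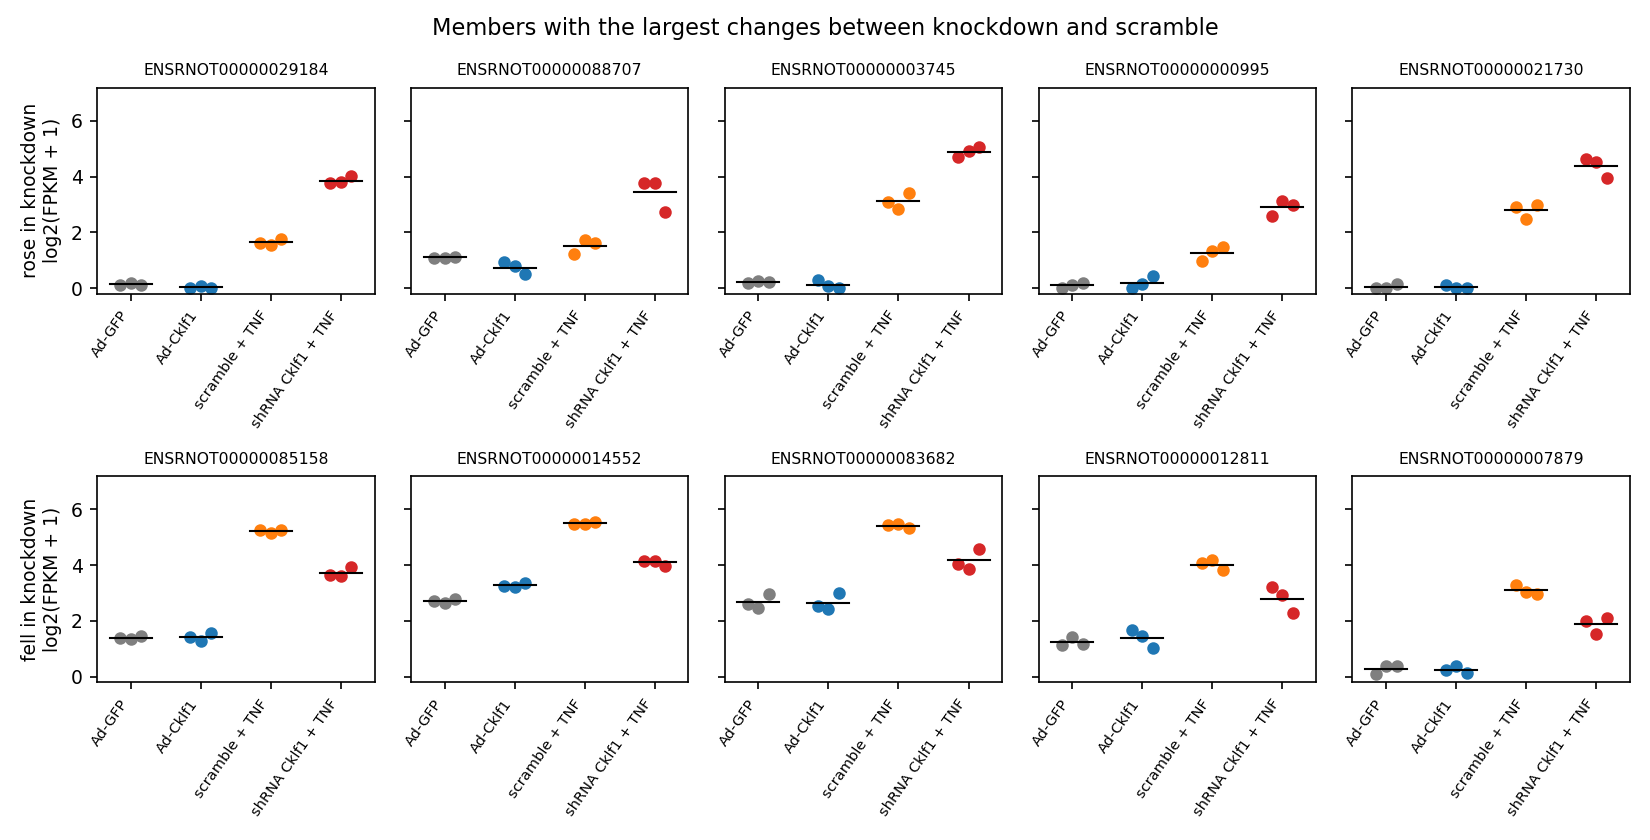
Level in each library, as log2(FPKM + 1), of the 5 members with the largest rise (top) and the 5 with the largest fall (bottom) between knockdown and scramble. Points are the 3 libraries of a group and bars their mean. In the top row the knockdown points lie above the scramble points, and in the bottom row below them. That all of them lie above both groups without TNF is demanded by the rule.

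Of the 8 members furthest apart between the arms, 2 were called in the knockdown (25%, beside 29.6% of all tested). Of the 39 with a difference of at least 3 log2 units, 18 were called (46.2%), as 12 rises and 6 falls. ENSRNOT00000012075 rose, from 23.3 / 18.5 / 28.7 FPKM in scramble to 40.6 / 40.5 / 46.9 FPKM (0.85 log2 units, SE 0.15, adjusted p = 0.00283 by limma); with a pseudocount of 0.1 its adjusted p was 0.0527, from a range of 0.00109 to 0.0527 over the alternatives. ENSRNOT00000016541 was at 41.3 / 41.8 / 46.3 FPKM in scramble and 60.0 / 58.8 / 45.7 FPKM in knockdown (0.33 log2 units, SE 0.10, adjusted p = 0.0332 by limma). That call was lost when scramble replicate 1, scramble replicate 2, knockdown replicate 1 or knockdown replicate 2 was left out (limma adjusted p of 0.0955, 0.0922, 0.103 and 0.107, in that order) and in 3 other alternatives, in a range of 0.00234 to 0.110. ENSRNOT00000014865 was at 202 / 187 / 241 FPKM in scramble and at 278 / 337 / 361 FPKM in knockdown, and the higher level of all 3 knockdown libraries did not pass the test (0.63 log2 units, 95% interval 0.12 to 1.14, adjusted p = 0.0654 by limma).

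For some strong members the interval of the difference was narrow. ENSRNOT00000018622 was at 111 / 105 / 113 FPKM in scramble and 114 / 126 / 103 FPKM in knockdown, and the groups overlapped (0.054 log2 units, 95% interval -0.27 to 0.38, adjusted p = 0.815 by limma). ENSRNOT00000022128 stood at 209.5 / 217 / 215 FPKM and 211 / 206 / 167 FPKM (-0.14 log2 units, 95% interval -0.41 to 0.12, adjusted p = 0.404 by limma). ENSRNOT00000016330 was at 117 / 111 / 126 FPKM and 127 / 124 / 99.9 FPKM (-0.015 log2 units, 95% interval -0.25 to 0.22, adjusted p = 0.933 by limma). Of the 85 members not called, 75 had an interval that stayed within 1 log2 unit of 0. Differences smaller than that are not shown to be absent.

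Among the 8 most abundant members 3 were called in the knockdown, beside 29.6% of all tested. ENSRNOT00000028066 fell, from 422 / 415 / 378 FPKM in scramble to 332 / 328 / 279 FPKM in knockdown (-0.37 log2 units, SE 0.075, adjusted p = 0.00478 by limma). ENSRNOT00000066363 fell from 372 / 324 / 342 FPKM to 255 / 216 / 285 FPKM (-0.46 log2 units, SE 0.13, adjusted p = 0.0242 by limma), and the call was lost without scramble replicates 1 or 3 or knockdown replicate 2 (limma adjusted p of 0.0786, 0.0549 and 0.0822, in that order, in a range of 0.00666 to 0.0822). ENSRNOT00000023017 rose from 298 / 323 / 309 FPKM to 386 / 425 / 332 FPKM (0.29 log2 units, SE 0.086, adjusted p = 0.0292 by limma), a call lost when scramble replicate 1, scramble replicate 3, knockdown replicate 1 or knockdown replicate 2 was left out (limma adjusted p of 0.0876, 0.0690, 0.0719 and 0.0935) and in a fit of the 6 hairpin libraries, in a range of 0.00424 to 0.0990. ENSRNOT00000020265, the most abundant, overlapped between scramble, at 551 / 539.6 / 667 FPKM, and knockdown, at 513 / 675 / 528 FPKM (-0.039 log2 units, 95% interval -0.29 to 0.21, adjusted p = 0.826 by limma). The abundant members thus lay on both sides of scramble.

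By level without TNF, 14 of the 35 members under 1 FPKM in all 6 libraries rose in the knockdown and 7 fell, so that 21 were called, where 55 of all 104 tested transcripts at such levels were (52.9%). Of the 37 members at 10 FPKM or more, 11 rose and 12 fell (62.2%, beside 36.3% of 6210 tested). Of the 113 between, 37 rose and 19 fell (49.6%, beside 23.7% of 7384 tested). Transcripts under 1 FPKM in all 6 reached the mean of 1 FPKM needed for the test only through hairpin libraries. The tested transcripts also include the members. These shares are partly set by how the members were chosen, and nothing particular to the members is read from them. The difference between arms had a median of 2.03 log2 units in members that rose, 2.04 in those that fell and 2.19 in those not called.

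Ad-Cklf1 against Ad-GFP, both without TNF, asks what overexpression did to the same transcripts in cells without TNF. Of the members, 10 rose and 24 fell in Ad-Cklf1, and 151 did not pass the test (limma, adjusted p below 0.05). The members called were 18.4%, beside 18.8% of all 13698 tested and 19.9% of those with 2 to 400 FPKM. However, 35 members were under 1 FPKM in all 6 libraries compared here and reached the level of the rule through the hairpin libraries. Differences between such low levels are shrunk on the log2(FPKM + 1) scale. The shares called are thus partly set by how the members were chosen, and nothing particular to the members is read from them. Rises were 5.41% of members beside 7.80% of all tested, and falls 13.0% beside 11.1%. The median log2 fold change was -0.018 over members and -5.89e-05 over all tested. By at least 1 log2 unit 1 member fell and 0 rose (0.467% and 0.0584% of all tested). The 3 libraries of each group did not overlap for 69 members (37.3%, beside 42.4% of all tested), and for all 34 called. Leaving out Ad-Cklf1 replicate 2 or 3 left 15 falls in each case, and leaving out Ad-GFP replicate 3 left 6 rises. Upper-quartile scaling gave 14 rises and 20 falls, so rises were 41.2% of the called members in place of 29.4%.

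The largest fall was that of ENSRNOT00000003778, from 9.69 / 8.06 / 10.5 FPKM in Ad-GFP to 2.61 / 2.64 / 3.09 FPKM in Ad-Cklf1 (-1.46 log2 units, SE 0.091, adjusted p = 2.05e-05 by limma). It was at 68.1 / 68.5 / 76.0 FPKM in scramble and rose to 96.5 / 100.0 / 91.8 FPKM in knockdown (0.44 log2 units, SE 0.091, adjusted p = 0.00588 by limma), so its 4 groups did not overlap. ENSRNOT00000086390 fell from 27.3 / 28.4 / 28.7 FPKM to 16.9 / 16.1 / 15.9 FPKM (-0.75 log2 units, SE 0.093, adjusted p = 0.000903 by limma). ENSRNOT00000012963 fell from 29.7 / 32.0 / 31.3 FPKM to 19.8 / 18.7 / 18.1 FPKM (-0.69 log2 units, SE 0.06, adjusted p = 0.000147 by limma). The Ad-GFP level was 3.39, 1.73 and 1.64 times that of Ad-Cklf1 for these 3. ENSRNOT00000013989 stood at 3.64 / 3.68 / 3.71 FPKM and 2.19 / 1.98 / 2.12 FPKM (-0.60 log2 units, SE 0.11, adjusted p = 0.0052 by limma). ENSRNOT00000068683 stood at 7.96 / 7.44 / 9.13 FPKM and 5.41 / 5.16 / 4.83 FPKM (-0.58 log2 units, SE 0.09, adjusted p = 0.00282 by limma). All 5 also rose in the knockdown. The rises of ENSRNOT00000086390, from 80.1 / 83.2 / 83.9 FPKM in scramble to 125 / 121 / 93.7 FPKM (0.44 log2 units, SE 0.093, adjusted p = 0.00614 by limma), and of ENSRNOT00000013989, from 18.2 / 18.7 / 22.5 FPKM to 23.0 / 27.6 / 31.4 FPKM (0.44 log2 units, SE 0.11, adjusted p = 0.0118 by limma), did not pass the test in a fit of the 6 hairpin libraries (limma adjusted p of 0.0536 and 0.0759, in ranges of 8.98e-05 to 0.0536 and 0.00286 to 0.0759). ENSRNOT00000068683 rose by the most, from 29.1 / 31.2 / 30.7 FPKM in scramble to 70.5 / 77.3 / 61.7 FPKM (1.17 log2 units, SE 0.09, adjusted p = 2.89e-05 by limma), and ENSRNOT00000012963 from 64.6 / 66.9 / 64.9 FPKM to 114 / 119 / 103 FPKM (0.76 log2 units, SE 0.06, adjusted p = 3.37e-05 by limma).

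Among called members the largest rise with overexpression, 0.56 log2 units, was smaller than each of the falls named above. Members not called reached 0.69 log2 units. Over the 10 rises the sizes ran from 0.27 to 0.56 log2 units with a median of 0.43, beside a median of 0.37 over the 24 falls. ENSRNOT00000014552 rose from 5.57 / 5.31 / 5.86 FPKM in Ad-GFP to 8.52 / 8.40 / 9.21 FPKM in Ad-Cklf1 (0.56 log2 units, SE 0.062, adjusted p = 0.000483 by limma). ENSRNOT00000025934 rose from 20.2 / 17.4 / 19.7 FPKM to 29.0 / 27.1 / 27.2 FPKM (0.52 log2 units, SE 0.08, adjusted p = 0.00262 by limma). ENSRNOT00000019487 rose from 14.0 / 12.7 / 13.2 FPKM to 20.4 / 19.3 / 18.4 FPKM (0.51 log2 units, SE 0.056, adjusted p = 0.000483 by limma). ENSRNOT00000009894 rose from 9.23 / 9.56 / 10.3 FPKM to 14.8 / 12.7 / 13.2 FPKM (0.45 log2 units, SE 0.063, adjusted p = 0.00178 by limma) and did not pass the test in the knockdown, at 245 / 256 / 234 FPKM in scramble and 251 / 248 / 245 FPKM in knockdown (0.016 log2 units, 95% interval -0.13 to 0.16, adjusted p = 0.878 by limma). ENSRNOT00000037068 rose from 5.21 / 4.38 / 5.15 FPKM to 6.90 / 6.78 / 7.16 FPKM (0.43 log2 units, SE 0.087, adjusted p = 0.00942 by limma).

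Of the 8 members furthest apart between the arms, 0 were called with overexpression (beside 18.8% of all tested). A large difference between arms favours levels near 0 in these libraries, and 6 of the 8 had a median under 1 FPKM there. Differences at such levels are shrunk on the log2(FPKM + 1) scale, so nothing is read from the 0. ENSRNOT00000014865 was at 0.822 / 0.486 / 0.277 FPKM in Ad-GFP and 0.140 / 0.922 / 0 FPKM in Ad-Cklf1 (-0.22 log2 units, 95% interval -0.73 to 0.30, adjusted p = 0.547 by limma). ENSRNOT00000022128 was at 0.824 / 0.749 / 0.978 FPKM and 0.689 / 1.19 / 0.626 FPKM (-0.023 log2 units, 95% interval -0.29 to 0.24, adjusted p = 0.913 by limma). The groups overlapped for both transcripts. In the 35 members under 1 FPKM in all 6 libraries without TNF, 2 rose and 0 fell. Of the 37 at 10 FPKM or more, 2 rose and 9 fell. The shares of all tested transcripts at these levels are not given here for overexpression. Nothing particular to the members is therefore read from these counts. The difference of low transcripts is shrunk on the log2(FPKM + 1) scale, and with a pseudocount of 0.1 the counts over all members were 12 rises and 28 falls.

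Of the 26 members called in both comparisons, 22 moved in opposite directions (84.6%), where 1177 of all 1287 transcripts called in both did (91.5%). Among the 26, 17 fell with overexpression and rose in the knockdown (9.19% of members, beside 5.22% of all tested). The reverse, a rise with overexpression and a fall in the knockdown, held for 5 members (2.70%, beside 3.37%). In 2 members both effects were rises (1.08%, beside 0.445%) and in 2 both were falls (1.08%, beside 0.358%). A further 74 members were called in the knockdown alone, 8 with overexpression alone and 77 in neither. The groups compared share no library, and each effect here passed its own test. Both tests use 1 estimate of the spread from all 12 libraries, so they are not independent.

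The difference between the effects was also tested directly, as the overexpression effect minus the knockdown effect. It was higher for 32 members and lower for 63 (limma, adjusted p below 0.05), which is 17.3% and 34.1% of the members beside 16.0% and 19.3% of all tested. In all, 51.4% of the members passed this test, beside 35.3%. The test includes the knockdown effect, so these shares too are partly set by how the members were chosen. Nothing particular to the members is read from them. The largest positive difference was that of ENSRNOT00000014552, at 1.97 log2 units (limma adjusted p = 1.3e-06), which rose with overexpression and fell in the knockdown with no overlap between groups in either. ENSRNOT00000019487 followed, at 1.56 (limma adjusted p = 2.54e-06). Its levels were 13.3 ± 0.663 FPKM for Ad-GFP and 19.4 ± 0.988 FPKM for Ad-Cklf1, against 112 ± 3.09 FPKM for scramble and 53.5 ± 2.38 FPKM for knockdown (SD, n = 3 each). The largest negative differences were those of ENSRNOT00000029184, at -2.32 (limma adjusted p = 1.65e-06), and ENSRNOT00000088707, at -2.27 (limma adjusted p = 0.0011). Neither of these 2 passed the test with overexpression (limma adjusted p of 0.328 and 0.349). Both would not meet the rule with scramble as the only hairpin group, and ENSRNOT00000014552 would not with knockdown alone. Their differences follow in part from the choice of members. The arms also differed in TNF, so this difference compares the manipulations in their own settings. By the rule the members are lower without TNF, where log2(FPKM + 1) shrinks the overexpression effect more than the knockdown effect.

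**Figure D4:**
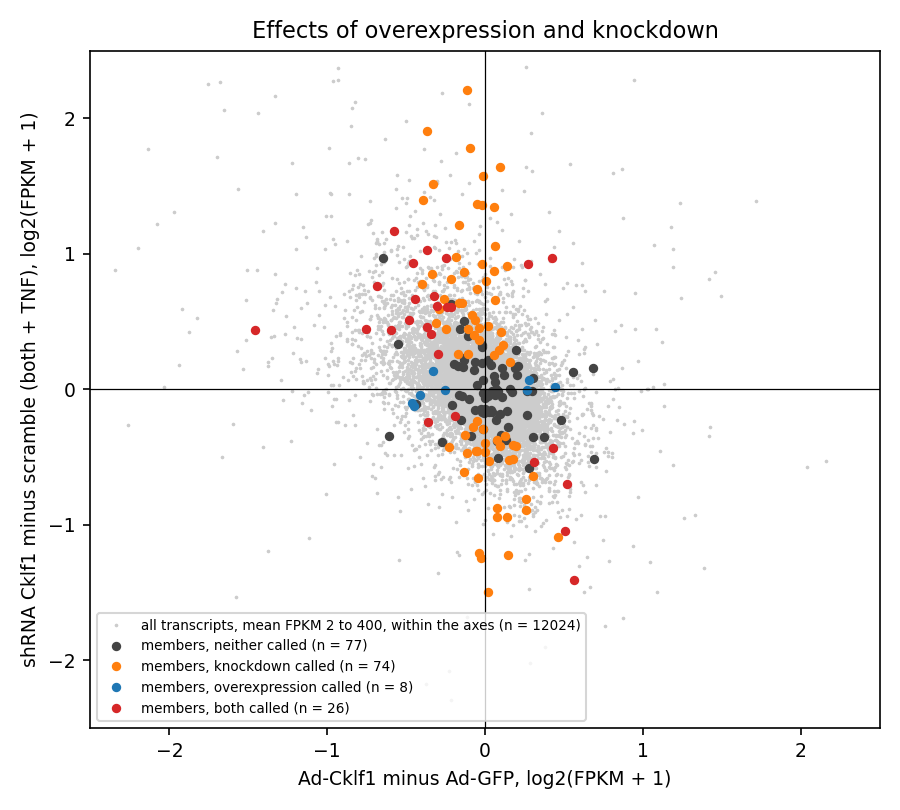
Overexpression effect (x axis) against knockdown effect (y axis), both as differences of mean log2(FPKM + 1), for the 185 members and, in grey, the 12024 of 12046 transcripts with 2 to 400 FPKM that lie within the axes. Colours mark the members called in neither (77), in the knockdown only (74), with overexpression only (8) and in both (26). The members spread further along the y axis than along the x axis. By the rule they are lower in the groups of the x axis, and log2(FPKM + 1) shrinks differences between low levels, so the 2 spreads are not on equal terms.

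The 62 transcripts lower in both hairpin groups, chosen by the mirrored rule, served for comparison. In the knockdown 31 of the 62 rose (50%) and 4 fell (6.45%), where 33.5% and 20.5% of the higher set did, and 16.0% and 13.6% of all tested. With overexpression 21 fell (33.9%) and 7 rose (11.3%), where the higher set had 13.0% and 5.41%, and all tested 11.1% and 7.80%. Their median log2 fold change was 0.41 in the knockdown and -0.16 with overexpression, beside 0.067 and -0.018 for the higher set. The choice of each set used the levels of all 4 groups, and whether the 2 sets differ was not tested.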

How the data were processed

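RNA from 12 libraries of rat aortic smooth muscle cells was selected with oligo(dT), primed with random hexamers and sequenced on Illumina instruments, per the labels' protocols. No strand-marking step is described there. The authors deposited 1 table per library with 1 FPKM value per Ensembl transcript. The unit was read from the files: a first column name that Cufflinks tools write, per the file headers, and decimals that sum to about the same total per library. Rnor 6.0 is the build named for the deposited data, per the submitters' processing notes. Which aligner, quantifier, annotation or between-library scaling was used is not given in the sources used here. Such values per transcript divide the reads of a gene among its isoforms, so a value near 0 can reflect assignment to another isoform.

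Values were transformed to log2(FPKM + 1), and the 13698 transcripts whose mean reached 1 FPKM were fitted in R 4.3.3 with limma 3.58.1. The fit took all 12 libraries, gave each group its own mean and left 8 residual degrees of freedom. P-values were Benjamini-Hochberg adjusted over all 13698 within each of 3 comparisons, and a transcript was called below 0.05. All 185 members were in the fit. The difference between arms chose the members and was not tested. Members and lists were chosen with earlier results of these data known. The gene lists and cell type markers that had been drawn up were not used, for lack of gene names. Members named are the 8 with the largest difference between arms, the 8 most abundant in the hairpin libraries, up to 5 per direction among called members without overlap in each single comparison, up to 2 per direction for the difference between the effects, and the 3 nearest the threshold on each side. The fit was tested on simulated data with known changes. Alternatives were another pseudocount, other filters, 2 scalings, a trend with a robust prior, a replicate block, fits of 6 libraries and leaving out each library. FPKM values hold no read numbers, so no counting intervals are given.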

Additional observations from a re-analysis of the deposited data

Results flagged for a closer look

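The effect of overexpression without TNF differed from the effect of the knockdown with TNF in a direct test (limma, adjusted p below 0.05) for 95 members: the overexpression effect was the higher one for 32 and the lower one for 63. Among the members named in the text, it was higher, by the log2 units in brackets, for ENSRNOT00000014552 (1.97), ENSRNOT00000019487 (1.56), ENSRNOT00000085158 (1.51), ENSRNOT00000012811 (1.37), ENSRNOT00000083682 (1.22), ENSRNOT00000025934 (1.22), ENSRNOT00000007879 (1.17), ENSRNOT00000037068 (0.861), ENSRNOT00000028066 (0.448) and ENSRNOT00000009894 (0.43). It was lower, with the difference in brackets, for ENSRNOT00000029184 (-2.32), ENSRNOT00000088707 (-2.27), ENSRNOT00000003778 (-1.89), ENSRNOT00000003745 (-1.88), ENSRNOT00000068683 (-1.75), ENSRNOT00000021730 (-1.59), ENSRNOT00000000995 (-1.55), ENSRNOT00000012963 (-1.45), ENSRNOT00000086390 (-1.2), ENSRNOT00000012075 (-1.19), ENSRNOT00000013989 (-1.04), ENSRNOT00000039335 (-0.788) and ENSRNOT00000025222 (-0.461). With a pseudocount of 0.1 the tests of ENSRNOT00000000995 and ENSRNOT00000007879 did not pass (limma adjusted p of 0.0881 and 0.0665, in ranges of 0.000224 to 0.0881 and 0.00196 to 0.0665 over their alternatives). The choice of members used the levels of all 4 groups, so these counts and differences follow in part from it. The cause of these differences was not tested.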

How the results depend on the processing

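Counts of members moved by over 1.5 times under a few settings. Requiring at least 1 log2 unit left 14 rises and 7 falls for the knockdown, and 0 and 1 for overexpression. For the difference between the effects it left 12 higher and 27 lower (6.49% and 14.6%, beside 1.22% and 3.70% of all tested). These shares are partly set by how the members were chosen. A filter at 10 FPKM tested 111 members and gave 38 rises for the knockdown and 39 lower for the difference. The rule itself gave 382 members at a difference of at least 1, 103 at 2, and 111 with a mean of 10 to 400 FPKM. Leaving out each library in turn gave 53 to 64 rises and 31 to 36 falls for the knockdown, between 6 and 11 rises and between 15 and 20 falls with overexpression, 28 to 34 higher and 53 to 63 lower for the difference, and 170 to 192 members. These fits assume that the 2 libraries left in a group vary as the other groups do. Counts at a stricter or looser threshold move by definition, and the filter at 10 FPKM tested fewer members. The cause of the other moves was not tested. Deviations of same-numbered libraries correlated little (-0.048 to 0.086 over 18 pairs), but 8 of 12 libraries did best with their own number. The main fit did not take the numbers as pairs, though a weak link by number may exist. A replicate block gave 61 rises and 38 falls for the knockdown, 9 and 24 for overexpression, and 35 higher and 60 lower for the difference. A pseudocount of 0.1 gave 231 members by the rule, all 185 among them. The called effects of named members kept their direction in all 911 refits and lost the call in 20. Reads per library limit the lowest members, and FPKM values do not give their number.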
